A study of Mus musculus with 8 samples.

Results

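Of the RelA binding sites mapped in mouse fibroblasts before and during TNF treatment, 2359 lay inside genes of 100 kb or more. They were the peaks on chromosomes 1 to 19 whose centre fell within a protein-coding gene and more than 1 kb from every gene end of any kind, where the longest protein-coding gene at that point spanned 100 kb or more. They made up 24.3% of the 9688 autosomal peaks, in a list of 9829 peaks in all, and are called intragenic peaks here, with the gene around each called its host. The other autosomal peaks were 1452 inside shorter protein-coding genes, 1673 within 1 kb of a gene end and 4204 outside protein-coding genes. The length and the end distance chose the peaks. The closest cases inside the length limit lay in Specc1l (100364 bp) and Cpe (100568 bp), and those just outside it were 3 peaks in Vmp1 (99979 bp). At the end limit, the nearest peaks kept were centred 1010, 1030 and 1042 bp from a gene end, in Agap1, Xrn1 and Hivep3, and the nearest left out were centred 984 and 972 bp away in Sema3a and Cenpp, with another in Cep112 between them.

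RelA (p65) is the NF-kB subunit that carries a strong transcription activation domain. In resting cells it is held in the cytoplasm by I-kappa-B proteins, and TNF releases it to enter the nucleus and bind kappaB sites in promoters and in enhancers. Introns of long genes are a common place for enhancers, and an enhancer inside a gene may act on that gene or on a neighbour, so a host is not thereby a target of RelA. The fibroblasts were primary cells from wild-type C57BL/6 mouse embryos, kept overnight in low serum. The ChIP libraries, made with an antibody against p65, came from cells at 0 h and from cells exposed to TNF at 10 ng/ml for 0.5 h or 3 h, with 2 libraries at each time, beside 2 libraries of input DNA, 8 in all. The peaks came as 1 list for the series, with positions on mm10 and neither a height nor a library attached. The times, the replicates and the input could therefore not be compared, depth was unknown, and nothing in the list allowed the labelled cell type to be checked. All values below describe this list, with no test, and the 95% intervals (exact binomial for shares, exact Poisson for counts per Mb) cover counting error only.

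The intragenic peaks whose sequence could be read were those at start sites inside their hosts. The start-site table used here, from RefSeq on GRCm38.p6, gives 300 bases around each start (250 before it and 50 after it). It matched 1772 of the 2312 autosomal protein-coding genes of 100 kb or more. The matched genes had 928 internal start sites more than 1 kb from every gene end. An internal start site is an alternative promoter from which a shorter transcript of the gene begins. Of the 928 windows, 44 in 41 genes were touched by an intragenic peak and 27 lay wholly inside one. The consensus kappaB motif was found on either strand in 6 of these 27 windows (22.2%, interval 8.62 to 42.3%), against 77 of 882 internal windows that no peak touched (8.73%, interval 6.95 to 10.8%) and 8.55% of the 31363 autosomal start windows analysed. The intervals of the 27 windows and of the untouched windows overlapped. These 6 windows are shown because they join the peak, the start site and the motif. The 250 bases that end just before the start site are printed for 5 of them, and a 30-base stretch after the start site for Ptpn3, each in the direction of the host's transcription with the motif in capitals.
Abcg2, chr6:58640296-58640545, plus strand: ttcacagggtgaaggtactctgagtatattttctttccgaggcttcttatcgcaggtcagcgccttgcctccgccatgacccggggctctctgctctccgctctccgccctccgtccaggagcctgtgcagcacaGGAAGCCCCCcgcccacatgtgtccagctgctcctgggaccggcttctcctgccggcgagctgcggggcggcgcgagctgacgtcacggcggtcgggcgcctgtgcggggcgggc
Ank2, chr3:126998453-126998702, minus strand: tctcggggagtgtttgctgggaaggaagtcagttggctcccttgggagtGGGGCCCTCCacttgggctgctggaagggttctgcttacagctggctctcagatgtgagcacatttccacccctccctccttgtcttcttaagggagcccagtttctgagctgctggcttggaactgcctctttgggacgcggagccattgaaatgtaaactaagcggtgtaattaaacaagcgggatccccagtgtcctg
Evi5, chr5:107869049-107869298, minus strand: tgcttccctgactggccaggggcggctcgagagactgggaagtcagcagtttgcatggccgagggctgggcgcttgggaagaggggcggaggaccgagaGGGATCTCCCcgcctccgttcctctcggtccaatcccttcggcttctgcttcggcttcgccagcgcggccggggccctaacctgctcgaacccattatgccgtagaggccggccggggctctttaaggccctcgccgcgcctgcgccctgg
Sipa1l3, chr7:29505461-29505710, minus strand: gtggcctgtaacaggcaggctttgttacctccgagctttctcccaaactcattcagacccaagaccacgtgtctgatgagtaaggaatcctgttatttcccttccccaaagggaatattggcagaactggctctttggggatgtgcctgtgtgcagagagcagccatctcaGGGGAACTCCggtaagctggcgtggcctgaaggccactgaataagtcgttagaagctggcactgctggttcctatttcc
Tbc1d1, chr5:64160010-64160259, plus strand: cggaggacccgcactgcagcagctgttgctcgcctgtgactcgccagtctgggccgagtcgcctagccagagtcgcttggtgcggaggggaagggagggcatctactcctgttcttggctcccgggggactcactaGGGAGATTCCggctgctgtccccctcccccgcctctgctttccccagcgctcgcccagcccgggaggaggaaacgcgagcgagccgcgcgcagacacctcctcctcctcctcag
Ptpn3, chr4:57301800-57301829, minus strand: gggctctgtaGGAATTCCCCggacgcgagg

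In Ptpn3, which encodes a cytoplasmic tyrosine phosphatase, the site GGAATTCCCC began 18 bases after the internal start and its middle was 106 bp from the centre of an 817 bp peak. In the other 5 genes the site was upstream. Its middle was 32 bp from the peak centre in Evi5, whose protein regulates Rab GTPases and cytokinesis, and 51 bp in the drug efflux pump gene Abcg2. The distance was 64 bp in Sipa1l3, which encodes a Rap GTPase-activating protein, 69 bp in the ankyrin gene Ank2 and 91 bp in Tbc1d1, a Rab GTPase-activating protein gene of glucose transport. The sites in these 5 windows were GGGATCTCCC in Evi5, GGAAGCCCCC in Abcg2, GGGGAACTCC in Sipa1l3, GGGGCCCTCC in Ank2 and GGGAGATTCC in Tbc1d1. All 6 sites lay at most 106 bp from the peak centre, in windows that cover only part of each peak. Where such a start lay in its gene varied widely. The peak in Tbc1d1 was centred 3.76 kb from the gene's 5′ end and that in Evi5 5.95 kb, while the peak in Ank2 was 502 kb from it.

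Motifs of other factors were searched in the same windows on both strands. The TEAD motif GGAATG, bound by the effectors of the Hippo pathway, was in 10 of the 27 windows (37.0%, interval 19.4 to 57.6%), against 16.4% of the internal windows that no peak touched and 14.6% of all start windows. The AP-1 motif TGANTCA was in 3 windows (11.1%, interval 2.35 to 29.2%), against 7.60% of untouched internal windows and 7.85% of all windows. The RUNX motif TGTGGTT was in 2 windows and the C/EBP motif TTGCNNAA in 1, against 4.65% and 10.7% of untouched internal windows. The other start windows, of genes of any length, that lay wholly inside a peak carried the kappaB consensus in 285 of 780 cases (36.5%, interval 33.2 to 40.03%), which overlaps the interval of the 27 windows, and the TEAD motif in 14.5%. The windows also differed in base composition: the median GC content was 59.3% in the 27 windows, 52.2% in untouched internal windows and 62.7% in the windows inside other peaks. The part of base composition in these shares was not tested. The windows of Sgcd, a sarcoglycan gene, and Trim2, a ubiquitin ligase gene, are shown as those with a TEAD site 5 bp and an AP-1 site 31.5 bp from the peak centre, each the nearest of its kind. The TEAD site (GGAATG) and the AP-1 site (TGACTCA) are in capitals.
Sgcd, chr11:47379326-47379575, minus strand: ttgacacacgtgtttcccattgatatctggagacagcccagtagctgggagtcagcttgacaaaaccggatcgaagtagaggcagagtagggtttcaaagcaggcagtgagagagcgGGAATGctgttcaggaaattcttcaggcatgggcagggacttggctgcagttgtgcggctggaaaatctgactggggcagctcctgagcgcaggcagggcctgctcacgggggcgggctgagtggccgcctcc
Trim2, chr3:84220878-84221127, minus strand: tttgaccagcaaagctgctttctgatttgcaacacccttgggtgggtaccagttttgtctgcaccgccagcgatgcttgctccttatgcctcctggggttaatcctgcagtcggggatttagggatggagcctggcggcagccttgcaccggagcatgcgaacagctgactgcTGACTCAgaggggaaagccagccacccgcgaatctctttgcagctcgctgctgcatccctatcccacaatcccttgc

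Internal start sites held more intragenic peaks per unit of sequence than the rest of the matched genes. In the matched genes, 47 of 1796 intragenic peaks (2.62%, interval 1.93 to 3.46%) were centred within 1 kb of such a start, in 0.379% of the gene interior, the sequence over 1 kb from gene ends in which a peak would have been counted. That was 28.4 peaks per Mb (interval 20.9 to 37.7), against 4.02 per Mb elsewhere in the same genes (interval 3.84 to 4.22), and the intervals did not overlap. The peaks at internal starts had a median width of 715 bp (quartiles 622 and 847 bp), against 671 bp (quartiles 581 and 794 bp) for the others. Among the genes named below, a peak was centred within 1 kb of an internal start in Limch1, Homer2, Pde7b, Sgcd and Prr5l. The widest peak at an internal start wholly covering its window was the 1517 bp peak of Aff1, which encodes a subunit of the super elongation complex, followed by those of Rin2 (1316 bp), a Rab exchange factor gene, and Sgcd (1111 bp).

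Along the whole length of the matched genes, intragenic peaks were spread evenly. With each matched gene, host or not, divided into 5 equal parts from the 5′ end, the parts held 340, 375, 360, 365 and 356 peaks, or 3.95, 4.26, 4.09, 4.15 and 4.14 per Mb, with intervals that all overlapped. Close to the gene ends the 5′ side had the higher values. From 5 to 10 kb there were 5.26 peaks per Mb on the 5′ side (45 peaks, interval 3.84 to 7.04) and 3.28 on the 3′ side (28 peaks, interval 2.18 to 4.74). From 50 to 100 kb there were 4.73 on the 5′ side (interval 4.28 to 5.21) and 5.23 on the 3′ side (interval 4.76 to 5.74). The intervals of the 2 sides overlapped at every distance examined up to 100 kb. The median intragenic peak was 57.8 kb from the nearer end of its host (quartiles 29.2 and 107 kb) and, in matched hosts, 112 kb from the 5′ end. The 5 most remote peaks were 3 in Rbfox1, at 527, 523 and 449 kb from the nearest end of any gene, and 1 each in Astn2 (379 kb) and Agbl4 (374 kb).

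**Figure D1:**
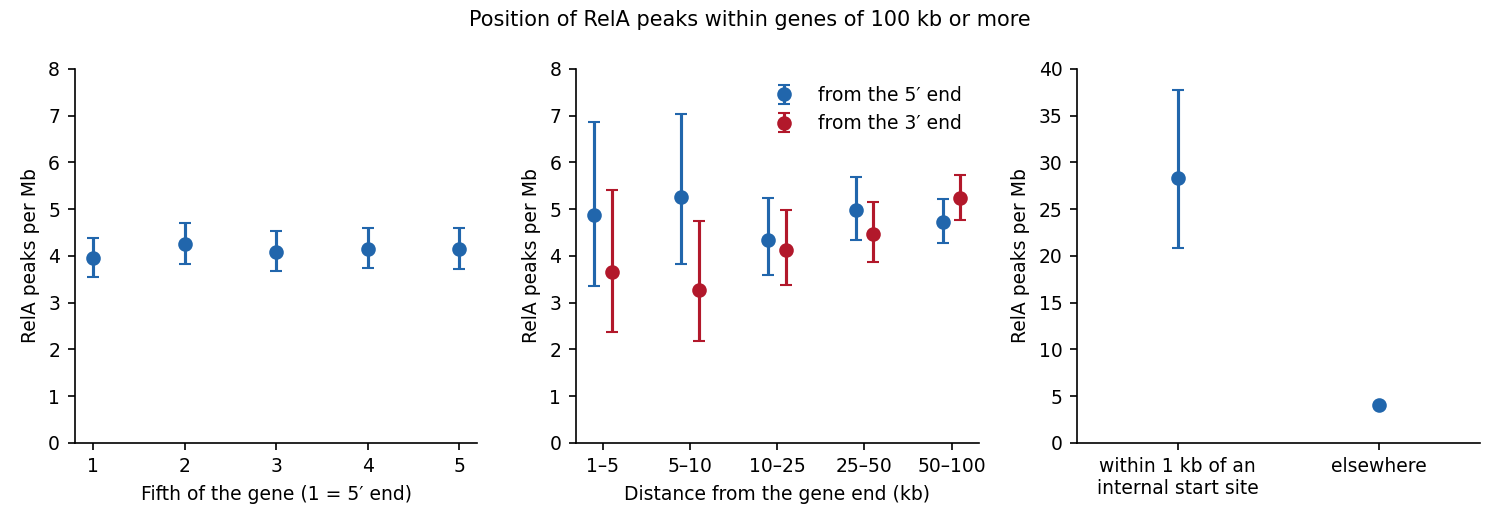
RelA peaks per Mb of gene interior (y axes) in genes of 100 kb or more with a known strand, by 5 equal parts of the gene from the 5′ end, by distance in kb from the 5′ or the 3′ end, and within 1 kb of an internal start site or elsewhere. Points are values over all such genes and bars are 95% Poisson intervals; the 5 parts lie between 3.95 and 4.26 per Mb, while internal start sites stand at 28.4 against 4.02 elsewhere.

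Hosts numbered 1134 of the 2312 autosomal protein-coding genes of 100 kb or more (49.0%), and 299 of them (12.9% of the 2312) held 3 or more intragenic peaks. For comparison, 1202 of 18349 shorter genes (6.55%) held a peak more than 1 kb from a gene end. Long genes offer more sequence, and per Mb of interior the intervals of the 2 sizes of gene overlapped: 4.17 peaks per Mb (interval 3.9999 to 4.34) in genes of 100 kb or more and 4.09 (interval 3.88 to 4.30) in shorter ones. This comparison turned with the length limit: the ratio of density in longer over shorter genes was 1.02 at 100 kb, 1.127 at 50 kb (interval 1.04 to 1.22) and 0.863 at 200 kb (interval 0.808 to 0.922). Without the neuronal and synaptic genes described below it was 1.11 at 100 kb (interval 1.04 to 1.19). Among the long genes the share of hosts was higher in each longer class, and the density was lowest in the longest. Genes of 100 to 150 kb were hosts in 336 of 921 cases (36.5%) with 5.00 peaks per Mb. Genes of 200 to 300 kb were hosts in 244 of 412 cases (59.2%) with 5.35 per Mb (interval 4.90 to 5.84), the highest density of the 6 length classes. Genes of 1000 kb or more were hosts in 43 of 55 cases (78.2%), but with only 2.02 peaks per Mb (interval 1.70 to 2.37).

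**Figure D2:**
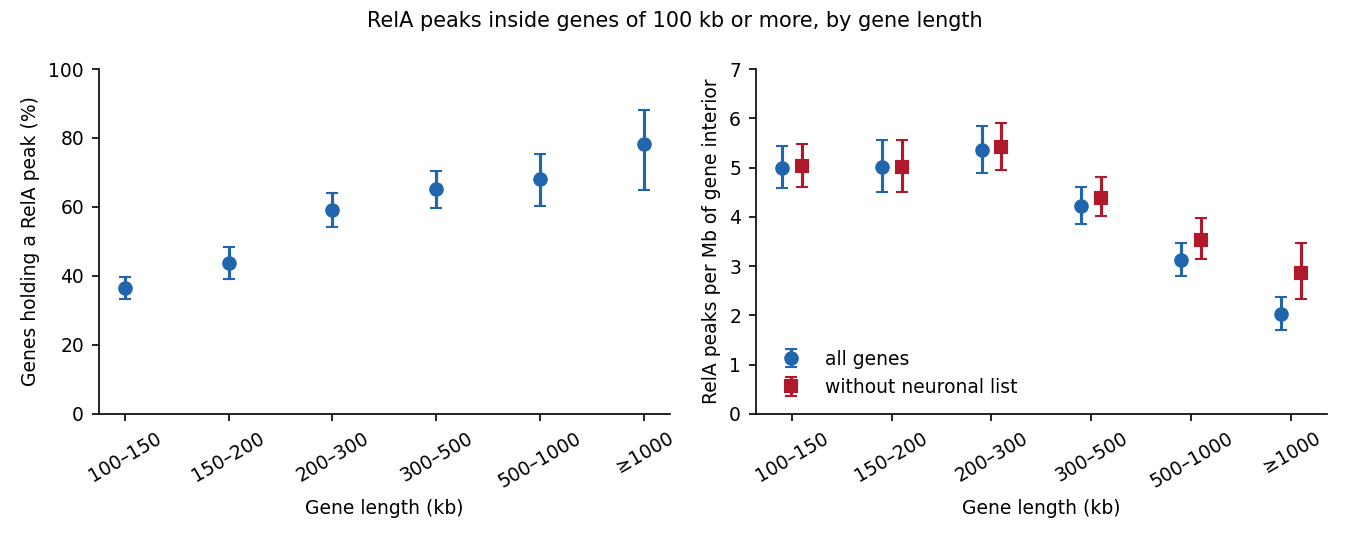
Share of genes holding an intragenic RelA peak (left, percent) and intragenic peaks per Mb of gene interior (right), for 6 classes of gene length in kb. Points are values per class and bars are 95% exact intervals; blue is all genes and red leaves out the neuronal and synaptic list. The share climbs to 78.2% in genes of 1000 kb or more, where the density is lowest at 2.02 per Mb, or 2.86 without the neuronal list.

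Intragenic peaks often came in series within a host. A single peak was found in 567 hosts and 2 or more in the other 567, which together held 1792 of the 2359 peaks. Neighbouring peaks in a host had a median spacing of 40.5 kb (quartiles 16.9 and 91.3 kb), and 163 of 1225 neighbouring pairs were within 10 kb (13.3%). Pde4d, a phosphodiesterase gene that lowers cyclic AMP signalling, had the most. On chromosome 13 from 108654177 to 109955969, it held 11 peaks, centred 7.26, 65.0, 92.1, 104, 379, 451, 606, 611, 904, 958 and 999 kb from its 5′ end and 540 to 1040 bp wide. Mcc, a tumour suppressor candidate, held 10, and 7 genes held 9 each: Rad51b (homologous recombination), Kalrn, Smg6 (the nuclease of nonsense-mediated decay), Auts2, Arhgap26, Lpp (a zyxin relative of focal adhesions) and Cdk6. In Kalrn, 8 of the 9 lay 13.0 to 221 kb from the 5′ end of a gene of 604 kb, and the remaining peak at 572 kb. In Lpp, by contrast, the peak nearest to the 5′ end lay at 112 kb, and the 9 reached to 541 kb. Genes with 8 were Rbms3, Etl4, Lhfpl2, Ttc28, Aopep, Pard3b and Bicc1.

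**Figure D3:**
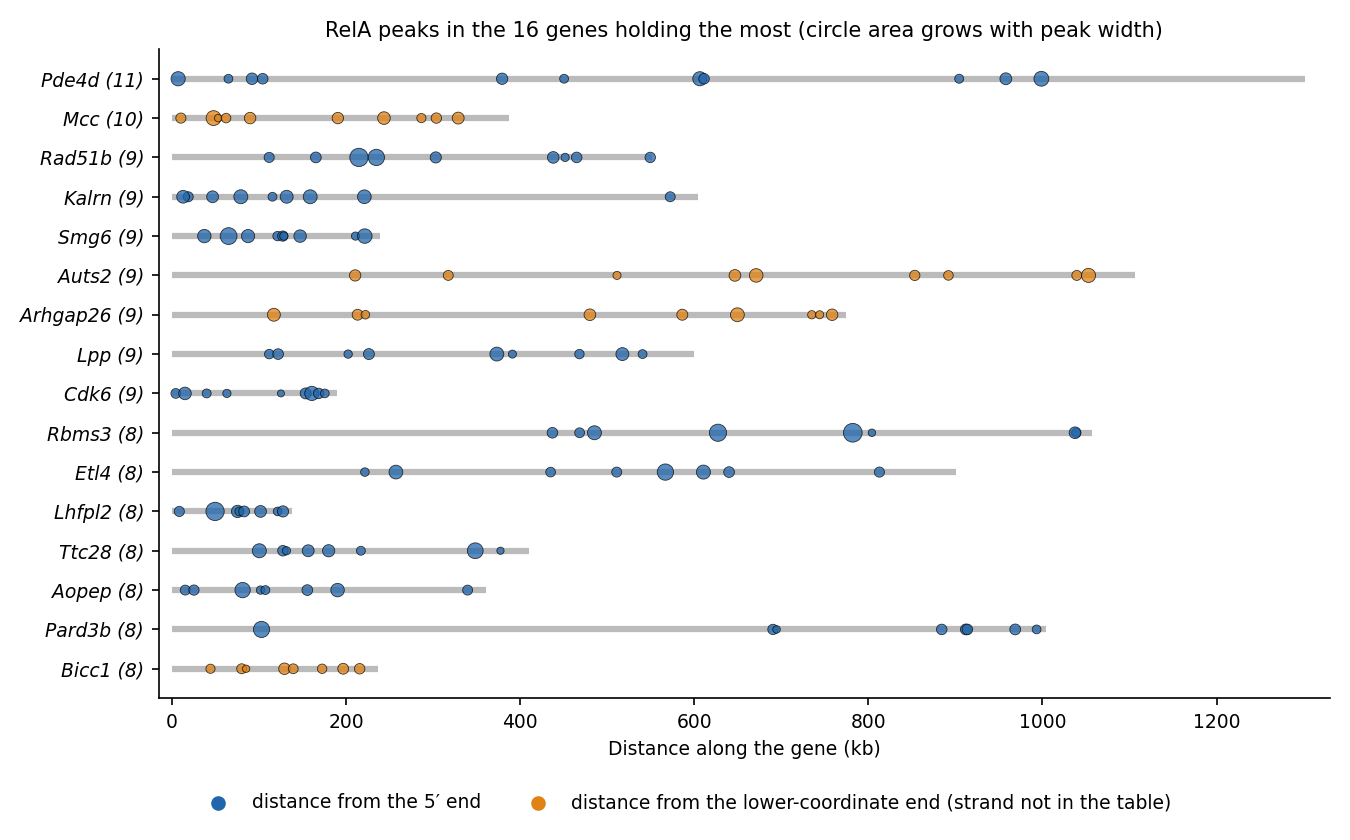
Positions of intragenic RelA peaks along the 16 genes that held 8 or more, as distance in kb from the 5′ end (blue) or, where the strand is not in the table, from the end with the lower coordinate (orange). Grey bars are the genes to scale, each circle is a peak whose area grows with its width, and the number held is in brackets; Pde4d leads with 11, while the 9 peaks of Cdk6 and the 8 of Lhfpl2 crowd into much shorter genes.

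Hosts with 3 or more peaks were also ranked by peaks per 100 kb, a ranking that favours shorter genes by its rule. Lhfpl2, which encodes a tetraspan membrane protein, had 6.05 peaks per 100 kb of interior: its 8 peaks lay 8.60, 49.7, 75.5, 77.5, 83.1, 101.9, 121 and 128 kb from the 5′ end of a gene of 138 kb. Cdk6, the cyclin-dependent kinase gene that drives entry into S phase, followed with 4.95 per 100 kb. Its 9 peaks lay 4.56, 15.1, 40.03, 63.2, 125, 154, 161, 169 and 176 kb from its 5′ end, so that the last 4 stood close together. Gxylt2, a xylosyltransferase gene acting on Notch receptors, had 4.93 per 100 kb, with pairs of peaks 1.23 and 1.29 kb apart. Smg6 (4.07), the perlecan gene Hspg2 (4.09), the endolysosomal channel gene Tpcn2 (4.15), the scaffold gene Homer2 (3.99), Egfr (3.96), Parva (3.90) and the mesenchymal transcription factor gene Tbx15 (3.75) made up the other 7 of the 10 densest hosts with 3 or more peaks. In Egfr, the epidermal growth factor receptor gene, the 6 peaks lay 8.10, 38.2, 80.1, 84.0, 96.9 and 143 kb from the 5′ end and were 548 to 1214 bp wide. The closest pair in these genes, 0.772 kb apart from centre to centre, was in Hspg2 and was also the closest pair in any host.

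Hosts were then grouped by function, using 21 lists that were written with earlier results of this series known, so the lists are descriptions and not independent support. Shares are read against the 49.0% of all genes of 100 kb or more, and densities against 4.17 per Mb. The median over all such genes was 0 per 100 kb. The 599 long genes in any list were longer, with a median of 227 kb, and 62.3% of them were hosts, while the 1713 in no list had a median of 161 kb and 44.4% hosts. Genes of 200 to 300 kb were hosts in 59.2% of cases whatever their function, so a list share near 60% is not above that of genes of such length. Density also differed by length, with 5.00 per Mb at 100 to 150 kb, 5.35 at 200 to 300 kb and 2.02 at 1000 kb or more. The 4.17 per Mb is therefore a low mark for lists of shorter genes, and list densities were not matched for length. Densities were 4.25 per Mb for genes in any list and 4.12 for genes in no list. Genes of cell adhesion and of the cytoskeleton stood above 4.17 per Mb in density. Of 23 long genes of integrins and focal adhesion, 16 were hosts (69.6%), with 46 peaks, 9.37 per Mb (interval 6.86 to 12.5) and a median of 0.85 per 100 kb. They were led by Lpp with 9 peaks and Parva with 6, and Sorbs2 and Nedd9 were among those with 4; Parva encodes an adaptor between integrins and actin, and Nedd9 a docking protein of focal adhesions. Itga1, Itga11, Vcl and Fyn, also long and named after their values were seen, held none. Actin, myosin and cytoskeletal linker genes were hosts in 27 of 46 cases (58.7%, 7.30 per Mb, interval 5.74 to 9.15). Limch1 and the formin gene Fmn1 held 6 peaks, and Synpo2 and the formin gene Fmnl2 were among those with 5.

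Among matrix genes, which fibroblasts are known for, collagens stood high as well. Collagen genes were hosts in 14 of 21 cases (66.7%, 7.86 per Mb, interval 5.30 to 11.2). Their median length was 141 kb, and the interval overlapped that of all genes of 100 to 150 kb (5.00 per Mb, interval 4.58 to 5.45). Col25a1 and Col24a1 held 4 peaks each, and Col27a1 and Col18a1 were among those with 3. The others, Col4a3, Col4a4, Col5a2, Col11a1, Col15a1, Col22a1 and Col26a1, were named after their values were seen and held none. In Col24a1 3 of the 4 peaks stood together 46.1, 56.4 and 66.0 kb from the 5′ end and the other at 213 kb. Matrix glycoproteins and proteoglycans were hosts in 20 of 28 cases (71.4%, 5.35 per Mb, interval 3.99 to 7.04), led by Hmcn1 with 6 and by the glypican gene Gpc6 and Adamtsl1 with 5 each. The median length of this list was 208 kb, and all genes of 200 to 300 kb also had 5.35 per Mb. Transcription factor genes were hosts in 55 of 74 cases (74.3%, interval 62.8 to 83.8%), and 27 of them held 3 or more peaks. With 152 peaks they had 6.73 per Mb (interval 5.70 to 7.89). At their median length of 226 kb, this interval overlapped that of all genes of 200 to 300 kb (4.90 to 5.84). Auts2, a nuclear regulator placed in this list, held 9. There were 7 each in Rora, a nuclear receptor of the circadian clock, and Hivep3, a zinc finger protein that binds kappaB-like sites, and Nfia was among those with 6.

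Signalling lists varied more. Hippo and Notch genes were hosts in 12 of 15 cases (80.0%, interval 51.9 to 95.7%), with 7.97 peaks per Mb (interval 5.15 to 11.8). Their median length was 142 kb, and the density interval overlapped that of all genes of 100 to 150 kb (4.58 to 5.45). Among the hosts were the Notch coactivator genes Maml3 (6 peaks) and Maml2 (4) and Tead1 (3), whose protein binds DNA for the Hippo pathway. Genes of TGF-beta and BMP signalling were hosts in 6 of 8 cases (8.89 per Mb, interval 4.60 to 15.5), with Bmper and Tgfbr3 at 3 peaks and Smad3 and Bmpr1b at 2. Chromatin regulators reached 57.6% and 6.01 per Mb (interval 4.29 to 8.19), with Hdac9, Aff3 and Arid5b at 5 peaks and Chd9 at 4. The intervals of the chromatin list and of the TGF-beta and BMP list included the 5.00 per Mb of all genes of 100 to 150 kb. Receptor tyrosine kinases (60.9%, 4.44 per Mb), axon guidance genes (69.2%, 4.07), cyclic nucleotide and calcium signalling genes (69.8%, 4.14), MAP kinase, PI3K and PKC genes (51.2%, 4.91) and WNT genes (46.2%, 4.28) had densities whose intervals included 4.17 per Mb. Their leading hosts were Egfr (6), Slit3 (6) and Pde4d (11), and, with 3 to 4 peaks, Dab2ip, Map2k6 and Daam1. Receptor-type tyrosine phosphatases were hosts in 8 of 15 cases with 2.55 per Mb (interval 1.54 to 3.98), and 7 of their 19 peaks lay in Ptprg. The list of NF-kB and TNF receptor signalling had only 3 genes of this length. Nfkb1, which encodes the precursor of the NF-kB subunit that pairs with RelA, held 2 peaks of 576 and 844 bp besides a peak at 1 of its ends, and Map3k5 and Traf3, named after their values were seen, held none.

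Genes of other cell types served for comparison. Neuronal and synaptic genes, the longest list with a median length of 718 kb, were hosts in 44 of 87 cases (50.6%). Within length classes their share was below that of other genes, with overlapping intervals: 8 of 20 against 199 of 297 (67.0%) at 300 to 500 kb, 57.6% against 70.9% at 500 to 1000 kb, and 65.4% against 89.7% at 1000 kb or more. Their density was 1.39 peaks per Mb (interval 1.12 to 1.69), the lowest of the 21 lists. The density was also lower within length classes. In genes of 500 to 1000 kb, neuronal genes had 1.71 per Mb (interval 1.23 to 2.33) and other genes 3.54 (interval 3.14 to 3.97), and in genes of 1000 kb or more 1.17 (interval 0.840 to 1.58) and 2.86 (interval 2.34 to 3.47). Sorcs2 and Tenm4 held 6 peaks each and Opcml and Grm7 were among those with 5. The 5 longest genes without any intragenic peak, Lrp1b, Csmd1, Pcdh15, Dpp10 and Cntn5, were all of this list and 1271 to 2058 kb long. The 5 longest hosts were Ptprd, Cntnap2, Lsamp, Macrod2 and Dlg2, at 1973 to 2271 kb. Of these hosts, Cntnap2 (2 peaks), Lsamp (2) and Dlg2 (3) were also of the neuronal list. Skeletal and cardiac muscle genes were hosts in 4 of 13 cases (30.8%, 2.21 per Mb, interval 1.14 to 3.87), namely Ctnna3 (6), Sgcd (4), Tnni3k (1) and Myom1 (1). Leukocyte genes were hosts in 8 of 12 cases (4.54 per Mb), led by Bank1 (4) and Fyb (3), endothelial genes in 3 of 5 (3.53 per Mb, Cdh13 with 4, St6galnac3 with 3 and Ldb2 with 1) and epithelial genes in 4 of 5 (7.64 per Mb, interval 4.27 to 12.6, Pard3b with 8, Trp63 with 4, Pard3 with 2 and Grhl2 with 1). The epithelial interval included the 5.35 per Mb of all genes of 200 to 300 kb. No value in the list shows whether any of these genes was transcribed.

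**Figure D4:**
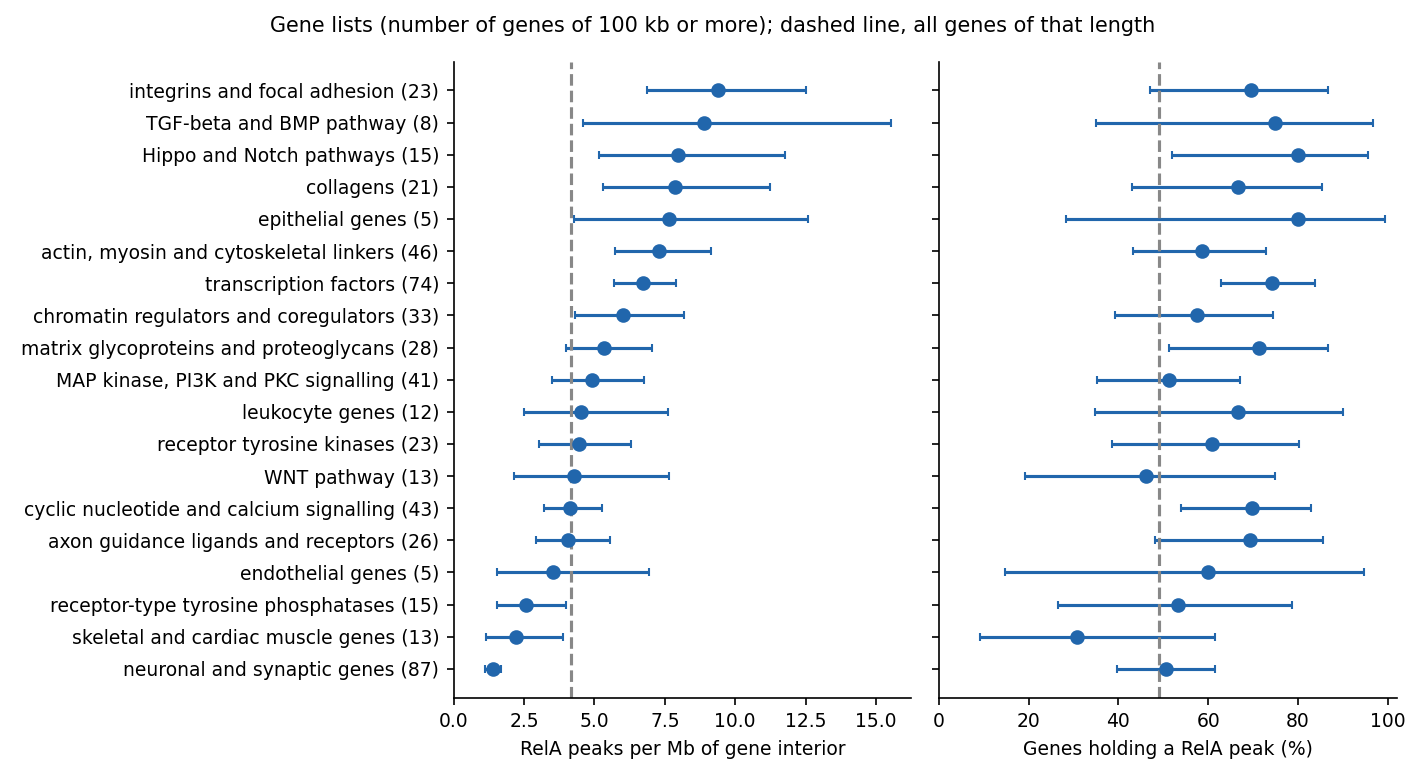
Intragenic RelA peaks per Mb of gene interior (left) and share of genes holding one (right, percent) for 19 gene lists with at least 5 genes of 100 kb or more, whose number is in brackets. Points are list values, bars are 95% exact intervals and the dashed lines mark all such genes (4.17 per Mb and 49.0%); integrins and focal adhesion lead in density at 9.37 per Mb and neuronal genes are lowest at 1.39.

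Peaks at the ends of the same genes were counted next. Of the 2312 long genes, 164 (7.09%) had a peak within 1 kb of an own end. Among hosts the count was 97 of 1134 (8.55%, interval 6.99 to 10.3%), and among long genes without an intragenic peak 67 of 1178 (5.69%, interval 4.43 to 7.17%), so most hosts had no peak at either end. In genes of 100 to 150 kb, where hosts and other genes had median lengths of 118 and 119 kb, the shares were 36 of 336 hosts (10.7%, interval 7.62 to 14.5%) and 34 of 585 other genes (5.81%, interval 4.06 to 8.03%), whose intervals overlapped. The share was also higher in hosts at 150 to 200 kb (7.18% of hosts and 6.35% of other genes) and at 200 to 300 kb (9.84% and 7.14%). It was 6.76% and 1.82% at 300 to 500 kb and 7.34% and 3.92% at 500 to 1000 kb, with overlapping intervals in each class. At 1000 kb or more it ran the other way, on 1 gene in each group (1 of 43 hosts and 1 of 12 other genes). Where the strand was known, end peaks were at the 5′ end in 69 of 865 hosts and at the 3′ end in 8. Long genes without an intragenic peak had the same skew, with 49 of 907 at the 5′ end and 6 at the 3′ end. Hosts with both kinds of peak included Chd9, a chromatin remodeller gene with a peak at its 5′ end and 4 inside, 12.1 to 48.6 kb downstream, and Maml2, Fgfr2 and Smad3, each with a peak at the 5′ end. Of the 16 genes with 8 or more intragenic peaks, Bicc1 alone had a peak within 1 kb of an end.

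In width, intragenic peaks resembled other peaks away from gene ends. Their median was 674 bp (quartiles 582 and 798 bp, range 342 to 1839 bp), against 672 bp inside shorter genes, 685 bp outside protein-coding genes and 744 bp at gene ends. Peaks of 1100 bp or more made up 87 of the 2359 (3.69%, interval 2.96 to 4.53%), against 4.20% inside shorter genes, 4.35% outside genes and 9.62% at gene ends. The widest were 1839 bp in the dynamin gene Dnm3 (chromosome 1, 162092788 to 162094626), 1834 bp in the semaphorin receptor gene Plxna2 (chromosome 1, 194745432 to 194747265) and 1824 bp in the homeobox gene Zfhx3 (chromosome 8, 108896210 to 108898033). Next came peaks in the urea transporter gene Slc14a2 (1747 bp), Jazf1 (1660 bp), the growth hormone receptor gene Ghr (1623 bp), Prr5l (1601 bp), Rnf150 (1565 bp), Gse1 (1547 bp) and Synpo2 (1534 bp). The Prr5l peak, 85.9 kb from the 5′ end, was centred within 1 kb of an internal start site. Another peak of any kind lay within 10 kb of 325 intragenic peaks (13.8%, interval 12.4 to 15.2%), against 276 of 1452 peaks inside shorter genes (19.01%, interval 17.0 to 21.1%), 16.7% of peaks outside genes and 13.6% of peaks at gene ends.

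**Figure D5:**
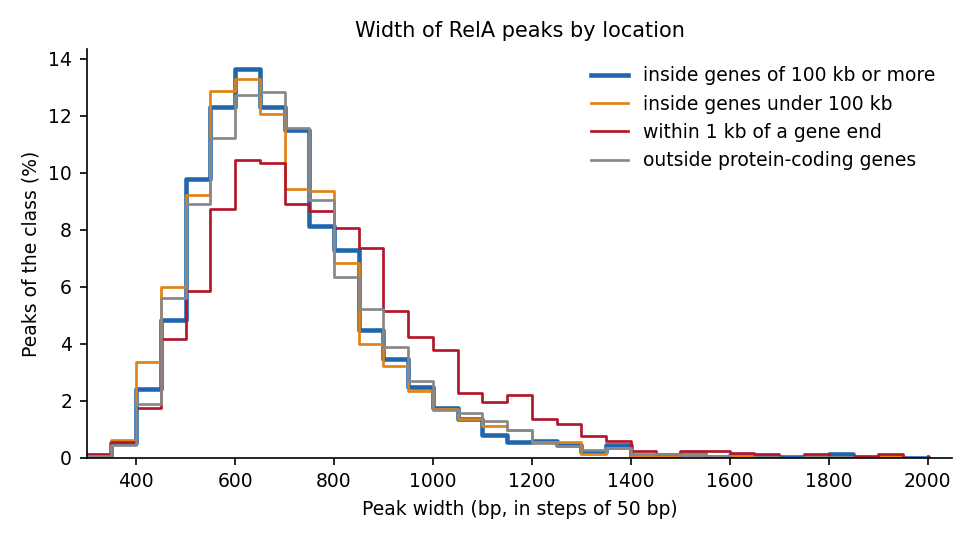
Width of RelA peaks (x axis, bp, in steps of 50 bp) as the percentage of each location class (y axis). The line of the 2359 intragenic peaks (median 674 bp) runs with those of peaks inside shorter genes and outside genes, and the line of gene-end peaks (median 744 bp) is shifted to larger widths.

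Intragenic density varied between chromosomes. Chromosome 18 was highest with 5.28 peaks per Mb of long gene interior (116 peaks, interval 4.36 to 6.33), followed by chromosome 15 (5.01), chromosome 7 (4.87) and chromosome 5 (4.75). Its share of hosts, however, was the lowest of the autosomes (51 of 127 long genes, 40.2%), and Mcc with 10 peaks and Arhgap26 with 9 both lie on it. Chromosome 14 was lowest with 3.06 (90 peaks, interval 2.46 to 3.76), and the intervals of chromosomes 18 and 14 did not overlap. These 2 were picked as the highest and the lowest, so the gap is no measure of variation between chromosomes, which was not tested. Chromosome 11 had 4.14 (interval 3.39 to 5.01), near the value of all autosomes, although its peaks inside shorter genes were the densest of any autosome at 5.74 per Mb. Few intragenic peaks had an ambiguous host: 23 lay in more than 1 protein-coding gene, 13 in more than 1 gene of 100 kb or more, and 124 (5.26%) also inside a noncoding gene.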

How the data were processed

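The series held 2 ChIP libraries at each of 3 times and 2 input libraries, and the deposited file analysed here was 1 list of peak positions with no value per sample. Per the submitters' processing notes, the tools were MACS2, Bowtie2 2.3, cutadapt 1.9.1, Picard 1.13, deepTools and SAMtools, and the build was mm10. What each tool did, the threshold for a peak and whether libraries were pooled is not given in the sources used here. Starts were converted to positions counted from 1. Genes came from a RefSeq table of GRCm38.p6 (mm10 is GRCm38), and strands and start sites from a RefSeq promoter table (start sites on chromosome 18 were not analysed here), in Python 3.11.15 with pandas 2.3.3 and scipy 1.17.1. A host is the longest protein-coding gene around a peak centre. The placement rule was checked on made-up genes and peaks with known answers. The peaks, the 21 gene lists (1056 symbols, all matched) and the rules for named genes were chosen with earlier results of these data known. The values of 1 list are not reported here. Named genes were the 20 hosts with most peaks, the 10 with most per 100 kb, the hosts of the widest and most remote peaks, the longest genes, the 4 leading hosts of each list and the peaks next to each limit. Genes with peaks at internal start sites or at gene ends were named after their values were seen. No test was run, because the list has no samples. The planned motif search in whole peaks was limited to start windows, since no genome sequence was used here.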

Additional observations from a re-analysis of the deposited data

Results flagged for a closer look

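Chromosome X was outside the rule but held 40 peaks inside its genes of 100 kb or more, above the 3 counts that a count of 0 allows. That is 1.39 per Mb of gene interior (interval 0.995 to 1.897), against 4.17 on the autosomes, in 25 of 114 long X genes.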

How the results depend on the processing

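With hosts of 50 kb or more, 35.3% of genes were hosts, the ratio of density in longer over shorter genes was 1.127, 41.8% of hosts held 2 or more peaks and the median distance to a host end was 41.8 kb. With 200 kb or more there were 1479 peaks, 63.9% hosts, a density ratio of 0.863, 59.5% with 2 or more and 89.6 kb. Beyond 5 kb from gene ends 45.6% were hosts at 61.0 kb, and beyond 10 kb 42.6%, with 44.3% holding 2 or more and 64.3 kb. With peaks of 687 bp or wider there were 1113 peaks, 31.9% hosts, 33.0% with 2 or more, a median width of 805 bp and 5.29% of hosts with an end peak. Leaving out the neuronal list, an alternative chosen after seeing the data, gave a density ratio of 1.11, against 1.02 with it. The density ratio thus lay above or below 1 with the length limit. The other 41 of 61 recomputed values stayed within 1.5 times (counts) or the interval of the reported value, and 18 of 63 list shares left their interval under other limits or wider peaks. Some of these values could hardly move. Asking for the whole peak inside the gene changed nothing, since centres lay over 1 kb from gene ends and intragenic peaks reached at most 1839 bp. Counting every long gene around a centre left all 21 list shares as they were, with only 13 peaks in more than 1 such gene. Of 21 lists, 18 had a share of hosts above that of all long genes, 15 with the 200 kb limit and 17 with wider peaks. The kappaB share was 18.5% within 100 bp of the peak centre. No paired analysis was possible because the peaks carry no library. Leaving out a replicate could not be done for the same reason. Depth was unknown.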
